A study of Mus musculus with 28 samples.

Results

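Ksr2 and 9 other genes of the RAS-ERK cascade and its feedback were followed through the 28 libraries of the study, and each of these 10 genes has 1 row with its symbol among the 43143 rows of the deposited table. Ksr2 was chosen by its measured values, because it lay far below WT in the KEAP1-KO cells and stayed low in the DKO cells, so its levels are given as a description and only its difference between the tumors of Experiment B was tested. The other genes, Ksr1, Dusp4, Dusp6, Spry2, Spry4, Etv4, Etv5, Phlda1 and Egr1, were chosen because they encode a related scaffold or are known as ERK-responsive genes. The question was whether these genes followed Ksr2 through the 7 groups.

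The libraries were RNA-seq of 3LL, an established line from a Lewis lung carcinoma of the mouse, and of tumors grown from it. The 3 cell groups were WT, KEAP1-KO and DKO, with 4 libraries each. KEAP1-KO cells carry a homozygous frameshift insertion in exon 2 of Keap1 and came from a single colony, and DKO cells were made from KEAP1-KO cells by also disrupting NRF2 (the Nfe2l2 gene), again as a single colony, so genotype and clone cannot be told apart. The 4 tumor groups, also of 4 each, grew under the skin of both flanks of albino C57BL/6 male mice of 6 weeks of age and were removed after 10 days. Experiment A paired WT tumors on the left with KEAP1-KO tumors on the right, and Experiment B paired KEAP1-KO tumors on the left with DKO tumors on the right, so genotype and flank changed together. Nothing in the labels says that the libraries of a cell group came from separate cultures, so the p-values of the cells measure only the spread between these libraries.

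The cascade runs from growth factor receptors through RAS to the kinases RAF, MEK and ERK. KSR proteins are scaffolds related to RAF that hold RAF, MEK and ERK together; KSR1 is found in many tissues, and KSR2 is best known from the nervous system and from the control of energy balance and body weight. ERK activity switches on genes that restrain the same cascade, such as the phosphatases of the DUSP family, which dephosphorylate MAP kinases, and the Sprouty proteins, which act near the receptors. It also induces ETS transcription factors and immediate early genes such as Egr1. A set of 10 such transcripts, here called the MAPK output signature (Phlda1, Spry2, Spry4, Dusp4, Dusp6, Ccnd1, Epha2, Epha4, Etv4 and Etv5), is widely used as a readout of MEK-ERK activity. KEAP1 normally holds the transcription factor NRF2 down, and NRF2 drives cytoprotective genes such as Nqo1.

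The values are log2(normalized count + 4), so a gene without reads sits at 2, and the libraries held between 4222365 and 7524264 recovered reads (median 5619787). Nqo1, Gsta4 and Keap1 followed the labels, while Nfe2l2 was not called between DKO and KEAP1-KO. Nqo1, an NRF2 target, had mean log2 levels of 9.01 in WT, 12.45 in KEAP1-KO and 6.77 in DKO cells, and KEAP1-KO tumors exceeded WT tumors by 5.55 while DKO tumors lay below KEAP1-KO tumors (-6.30). Gsta4, which encodes a glutathione transferase, had means of 4.16, 8.41 and 3.10 in the same cells. Keap1 transcripts were less abundant after KEAP1 editing, by limma, in tumors (-1.43, adjusted p = 1.8e-06) and in cells (-1.86, adjusted p = 2.2e-09), and the processed transcript listed for Nfe2l2 was not called on KEAP1 loss in tumors (-0.17, adjusted p = 0.512). For DKO against KEAP1-KO its means were 5.59 and 5.59 in tumors (adjusted p = 1.0) and 5.06 and 4.84 in cells (adjusted p = 0.650), so this row does not check the NRF2 label. Leukocyte markers changed with genotype in the tumors. All 10 were lower in KEAP1-KO than WT tumors of Experiment A (summed normalized counts of 911 to 1080 against 3770 to 4720), and 9 of 10 were higher in DKO than KEAP1-KO tumors of Experiment B (2630 to 4070 against 1500 to 1890). Macrophage markers were lower in 9 of 10 in Experiment A (Adgre1 by -1.87) and higher in 6 of 10 in Experiment B (Adgre1 by 0.92). In the cultured cells the leukocyte sum was between 11.5 and 57.7, with Ptprc, Laptm5, Tyrobp and Cd52 each at 0 in every library of at least 1 cell group. In whole tumors, fewer cells of a type and less RNA per cell cannot be told apart.

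Ksr2, Dusp4, Spry2, Spry4, Etv5 and Egr1 are listed as gene rows. Ksr1 is listed as 1 protein-coding transcript, and Dusp6, Etv4 and Phlda1 as processed transcripts, which are not the main coding forms and can follow unspliced RNA. Levels are therefore compared between groups for each gene and never between genes.

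The region around the Ksr2 start site is shown first because the gene was almost without reads in 1 genotype, together with the promoters of Ksr1 and Spry2, which hold the matches to the 4 motifs searched in the promoters of Ksr2, Ksr1, Dusp6, Spry2 and Etv5. The sequences are RefSeq's for GRCm38.p6, are 300 bases long around a start site, and are written 5′ to 3′ on the gene's strand, with a motif match in capitals. Ksr2 lies at chr5:117413752-117414051 (+ strand), the second start site of Ksr1 at chr11:79059787-79060086 (- strand) and Spry2 at chr14:105896770-105897069 (- strand).
Ksr2: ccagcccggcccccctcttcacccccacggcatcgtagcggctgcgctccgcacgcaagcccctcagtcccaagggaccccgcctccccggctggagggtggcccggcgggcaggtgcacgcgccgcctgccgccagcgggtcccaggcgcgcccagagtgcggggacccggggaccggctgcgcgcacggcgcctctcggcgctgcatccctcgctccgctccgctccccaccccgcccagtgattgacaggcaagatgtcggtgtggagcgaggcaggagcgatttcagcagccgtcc
Ksr1: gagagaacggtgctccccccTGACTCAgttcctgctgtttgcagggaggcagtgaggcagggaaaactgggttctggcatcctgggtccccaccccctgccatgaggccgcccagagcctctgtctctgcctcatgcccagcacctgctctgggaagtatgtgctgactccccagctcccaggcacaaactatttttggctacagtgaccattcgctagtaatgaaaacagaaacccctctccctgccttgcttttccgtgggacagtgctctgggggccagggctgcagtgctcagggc
Spry2: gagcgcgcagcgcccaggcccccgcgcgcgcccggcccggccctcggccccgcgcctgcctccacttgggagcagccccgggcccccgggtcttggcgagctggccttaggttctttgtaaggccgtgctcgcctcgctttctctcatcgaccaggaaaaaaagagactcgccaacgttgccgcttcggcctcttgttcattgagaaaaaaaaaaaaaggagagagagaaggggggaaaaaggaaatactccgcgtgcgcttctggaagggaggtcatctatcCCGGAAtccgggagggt
The motifs searched on both strands were the core of the antioxidant response element to which NRF2 binds (TGACNNNGC), the AP-1 site (TGANTCA), an ETS site (CCGGAA) and the CArG box. These motifs occur in 12.4%, 7.8%, 14.9% and 1.6% of the 32851 RefSeq promoters of this length. The Ksr2 promoter, with 75.3% G and C, held none of these letters, the second Ksr1 promoter held 1 AP-1 match and the Spry2 promoter held 1 ETS match. The first Ksr1 promoter, that of Dusp6 and the pair listed for Etv5 held no match. A match is a description of the letters only.

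Ksr2 was expressed at a similar level in WT cells and WT tumors and was close to absent wherever KEAP1 alone was lost. WT cells had normalized counts of 197, 192, 178 and 185, made of 164 to 178 reads per library. KEAP1-KO cells had 0.93, 4.37, 0.94 and 2.69, which is 1 to 5 reads per library. DKO cells had 6.84, 10.51, 12.57 and 6.83, made of 7 to 12 reads. Every DKO cell library thus lay above every KEAP1-KO cell library and far below every WT library. The ratio of summed reads, scaled for depth, was 82.6 for WT over KEAP1-KO cells (95% counting interval 44.6 to 173) and 20.8 for WT over DKO cells (14.9 to 29.8). These intervals cover counting error only.

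The tumors showed the same order. WT tumors of Experiment A had Ksr2 normalized counts of 163, 192, 216 and 205, while KEAP1-KO tumors from the other flanks had 5.56, 5.78, 1.93 and 5.84. KEAP1-KO tumors of Experiment B had 2.99, 4.65, 9.13 and 5.65, and DKO tumors had 25.2, 18.5, 17.0 and 18.8. Among tumors the KEAP1-KO groups of both experiments overlapped each other, and no other groups did. The ratio of WT to KEAP1-KO tumors was 41.2 in Experiment A (25.9 to 69.9), and WT tumors exceeded DKO tumors, of the other experiment, by 9.91 (7.91 to 12.5).

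**Figure D1:**
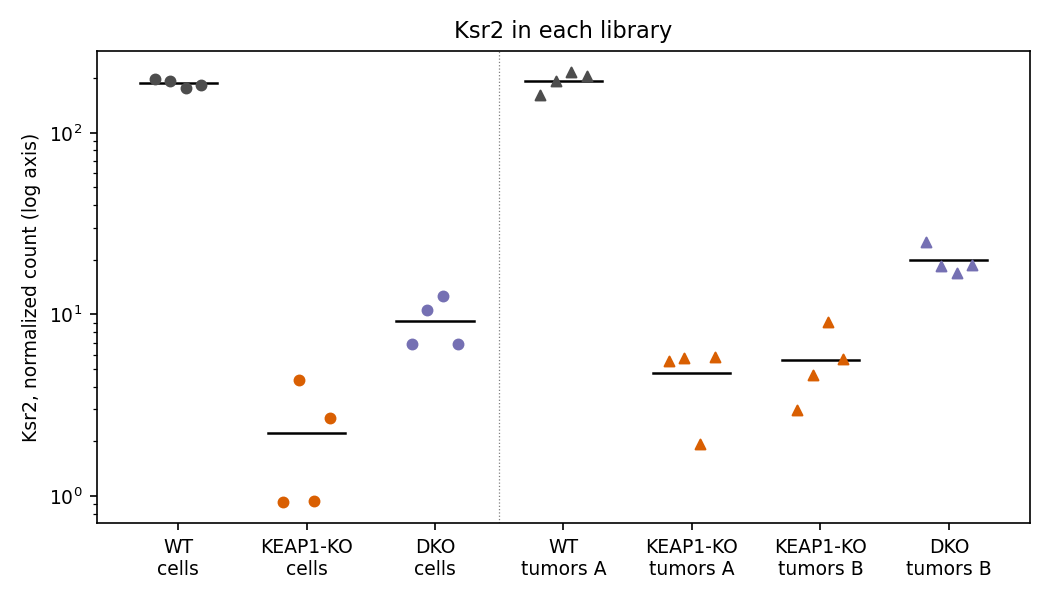
Normalized count of Ksr2 in each of the 28 libraries on a log axis, with points for libraries (circles for cells, triangles for tumors) and a line at each group's mean. WT cells and WT tumors A lie between 163 and 216, KEAP1-KO libraries at or below 9.13 and DKO tumors B between 17.0 and 25.2.

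In order of mean log2 level the groups ran from WT tumors (7.62) and WT cells (7.58), whose libraries overlapped, through DKO tumors (4.57), DKO cells (3.70), KEAP1-KO tumors of Experiments B (3.23) and A (3.10) to KEAP1-KO cells (2.60). The KEAP1-KO groups overlapped each other, and the KEAP1-KO tumors of Experiment B also overlapped the DKO cells. The difference in Experiment B, which was not used to choose the gene, was +1.34 (SE 0.22) for DKO minus KEAP1-KO tumors, with a limma adjusted p of 8.5e-04 over 34215 rows, and all 4 DKO tumors lay above all 4 KEAP1-KO tumors. It stayed between 1.2 and 1.5 when any library was left out. DKO tumors were also higher in 9 of 10 leukocyte markers and in 3 of 10 fibroblast markers (summed normalized counts of 10900 to 15300 against 3060 to 3800), while the skeletal muscle sum reached 411 in a DKO tumor against at most 62.2 in a KEAP1-KO tumor. They were lower in 3 of 10 endothelial markers (sums of 1220 to 1340 against 1440 to 1900). Of all rows 8.86% were called in this comparison. The part of these cell types in the Ksr2 difference of the tumors was not tested.

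The 9 other genes did not follow Ksr2 as a group. In KEAP1-KO against WT cells, 8 of the 9 could be tested and 5 were called, of which Dusp4 and Phlda1 were higher and Dusp6, Spry4 and Etv5 lower. Across all rows 15.5% were called in this comparison. In KEAP1-KO against WT tumors of Experiment A, 5 of 9 were called, where 13.1% of all rows were, with Dusp4, Spry4 and Phlda1 higher and Etv5 and Egr1 lower. Only Etv5 was called lower in both of these comparisons. In the tumors the count was 3 without WT tumor 1, WT tumor 2 or KEAP1-KO tumor 1. In DKO against KEAP1-KO cells 6 of 8 were called (8.83% of all rows), with Spry2, Spry4 and Etv5 higher and Ksr1, Dusp4 and Phlda1 lower. In DKO against KEAP1-KO tumors of Experiment B 5 of the 10 genes were called (8.86% of all rows). Ksr2 was the only one higher, and Ksr1, Dusp4, Etv4 and Phlda1 were lower. With a difference of at least 1 required as well, the counts were 3 in KEAP1-KO against WT cells, 2 in the tumors of Experiment A, 1 in DKO against KEAP1-KO cells and 3 in the tumors of Experiment B. The share of all rows was not counted at this threshold.

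**Figure D2:**
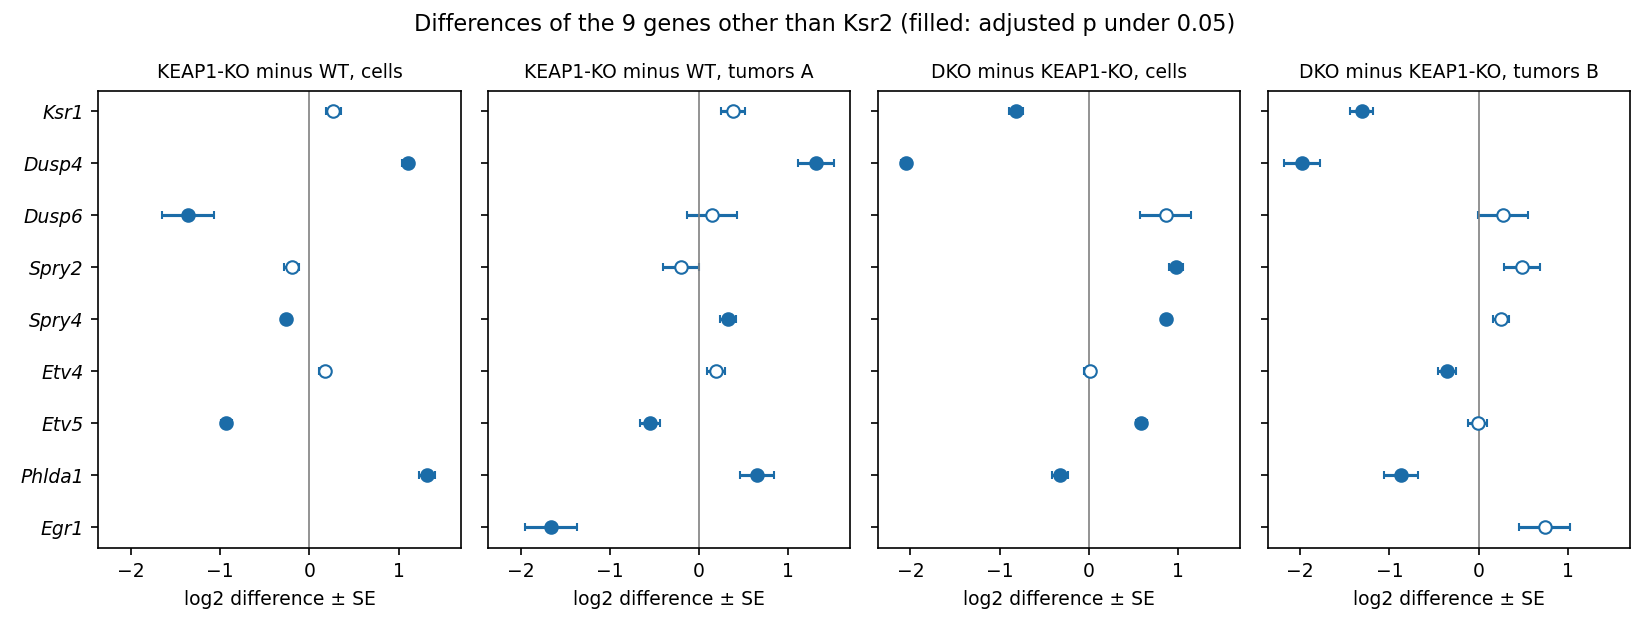
Log2 difference with its standard error of the 9 genes other than Ksr2 in 4 comparisons (2 in cells, 2 in tumors), 4 libraries per group, filled where the limma adjusted p is under 0.05 and empty otherwise; Egr1 was not tested in cells. Dusp4 lies at 1.10 and 1.31 on KEAP1 loss and at -2.05 and -1.98 on NRF2 loss. Phlda1 (1.32 and 0.65, then -0.32 and -0.87) and Ksr1 (0.27 and 0.38, then -0.82 and -1.31) have the same signs. The remaining genes scatter on both sides of 0.

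Over the 7 group means the Pearson correlation with Ksr2 ranged from -0.74 for Phlda1 through -0.41 for Dusp4 and 0.37 for Dusp6 to 0.58 for Etv5, as a description with 7 points that share the normalization. The KEAP1-KO tumors of Experiments A and B, which have the same genotype but lay on opposite flanks, served as a check. By limma none of the 9 genes was called between them and 1, Etv5, had an unadjusted p under 0.05 (0.27 higher in Experiment B, adjusted p = 0.555), while 56 rows (0.164%) were called in all. In the KEAP1-KO tumors of Experiment B 3 of 10 leukocyte and 5 of 10 macrophage markers were higher.

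Ksr1, the related scaffold, was lowest in DKO among the cells and among the tumors, in each of which Ksr2 lay higher in DKO than in KEAP1-KO. WT cells had log2 levels of 7.59, 7.54, 7.34 and 7.45, KEAP1-KO cells 7.63, 7.70, 7.81 and 7.84, and DKO cells 6.91, 6.80, 6.95 and 7.05. No cell group overlapped another. The DKO minus KEAP1-KO difference was -0.82 in cells (SE 0.08, adjusted p = 3.6e-05) and -1.31 in the tumors of Experiment B (SE 0.13, adjusted p = 6.1e-06), where DKO tumors had 6.03, 6.02, 6.44 and 6.07 against 7.36 to 7.54 in KEAP1-KO tumors. KEAP1-KO exceeded WT by 0.27 in cells (adjusted p = 0.0503) and by 0.38 in tumors (adjusted p = 0.0589), neither past the threshold, although each was past it under several other settings. DKO libraries were also below WT libraries, by limma, in cells (-0.55, adjusted p = 4.9e-04) and in tumors of different experiments (-0.86, adjusted p = 3.5e-04).

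The phosphatase Dusp4, which inactivates ERK and other MAP kinases in the nucleus, followed genotype in the same order in cells and in tumors. Its log2 levels were 9.88, 9.81, 9.78 and 9.86 in WT cells, 10.89, 10.92, 10.90 and 11.03 in KEAP1-KO cells, and 8.82, 8.80, 8.91 and 9.02 in DKO cells. WT tumors had 9.57, 9.50, 9.89 and 10.46, and their KEAP1-KO counterparts had 11.27, 11.26, 10.62 and 11.53. In Experiment B the KEAP1-KO tumors had 11.11, 10.91, 10.99 and 11.12, and the DKO tumors 8.90, 9.04, 8.85 and 9.41. KEAP1-KO libraries were thus the highest and DKO libraries the lowest in cells and in tumors, with no overlap between genotypes. KEAP1-KO exceeded WT by 1.10 in cells (SE 0.06, limma adjusted p = 4.2e-08) and by 1.31 in tumors (SE 0.20, adjusted p = 3.3e-04). DKO minus KEAP1-KO was -2.05 in cells (SE 0.06, adjusted p = 1.1e-10) and -1.98 in tumors (SE 0.20, adjusted p = 1.1e-05). DKO also lay below WT, by limma, in cells (-0.94, adjusted p = 1.7e-07) and across the experiments in tumors (-0.80, adjusted p = 0.0182), the latter call being lost in 3 of 8 fits that left out a library.

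Dusp6, the cytoplasmic phosphatase specific to ERK, differed between cells and tumors. WT cells had log2 levels of 5.56, 5.31, 5.39 and 5.77 and KEAP1-KO cells 4.55, 3.21, 4.57 and 4.26, a difference of -1.36 (SE 0.29, limma adjusted p = 0.00672). Its row held only 33 to 47 reads per library in WT cells and 6 to 21 in KEAP1-KO cells. In Experiment A the tumors overlapped, at 5.40 to 6.04 for WT and 5.44 to 6.25 for KEAP1-KO, and differed by 0.14 (interval of 2 SE -0.43 to 0.71). The difference between these differences was 1.5 (SE 0.42, adjusted p = 0.0333), a call lost in 7 of 16 fits that left out a library. DKO cells had 5.40, 4.70, 4.70 and 5.22, all above the KEAP1-KO cells, but the difference of 0.86 was not past the threshold (adjusted p = 0.107).

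**Figure D3:**
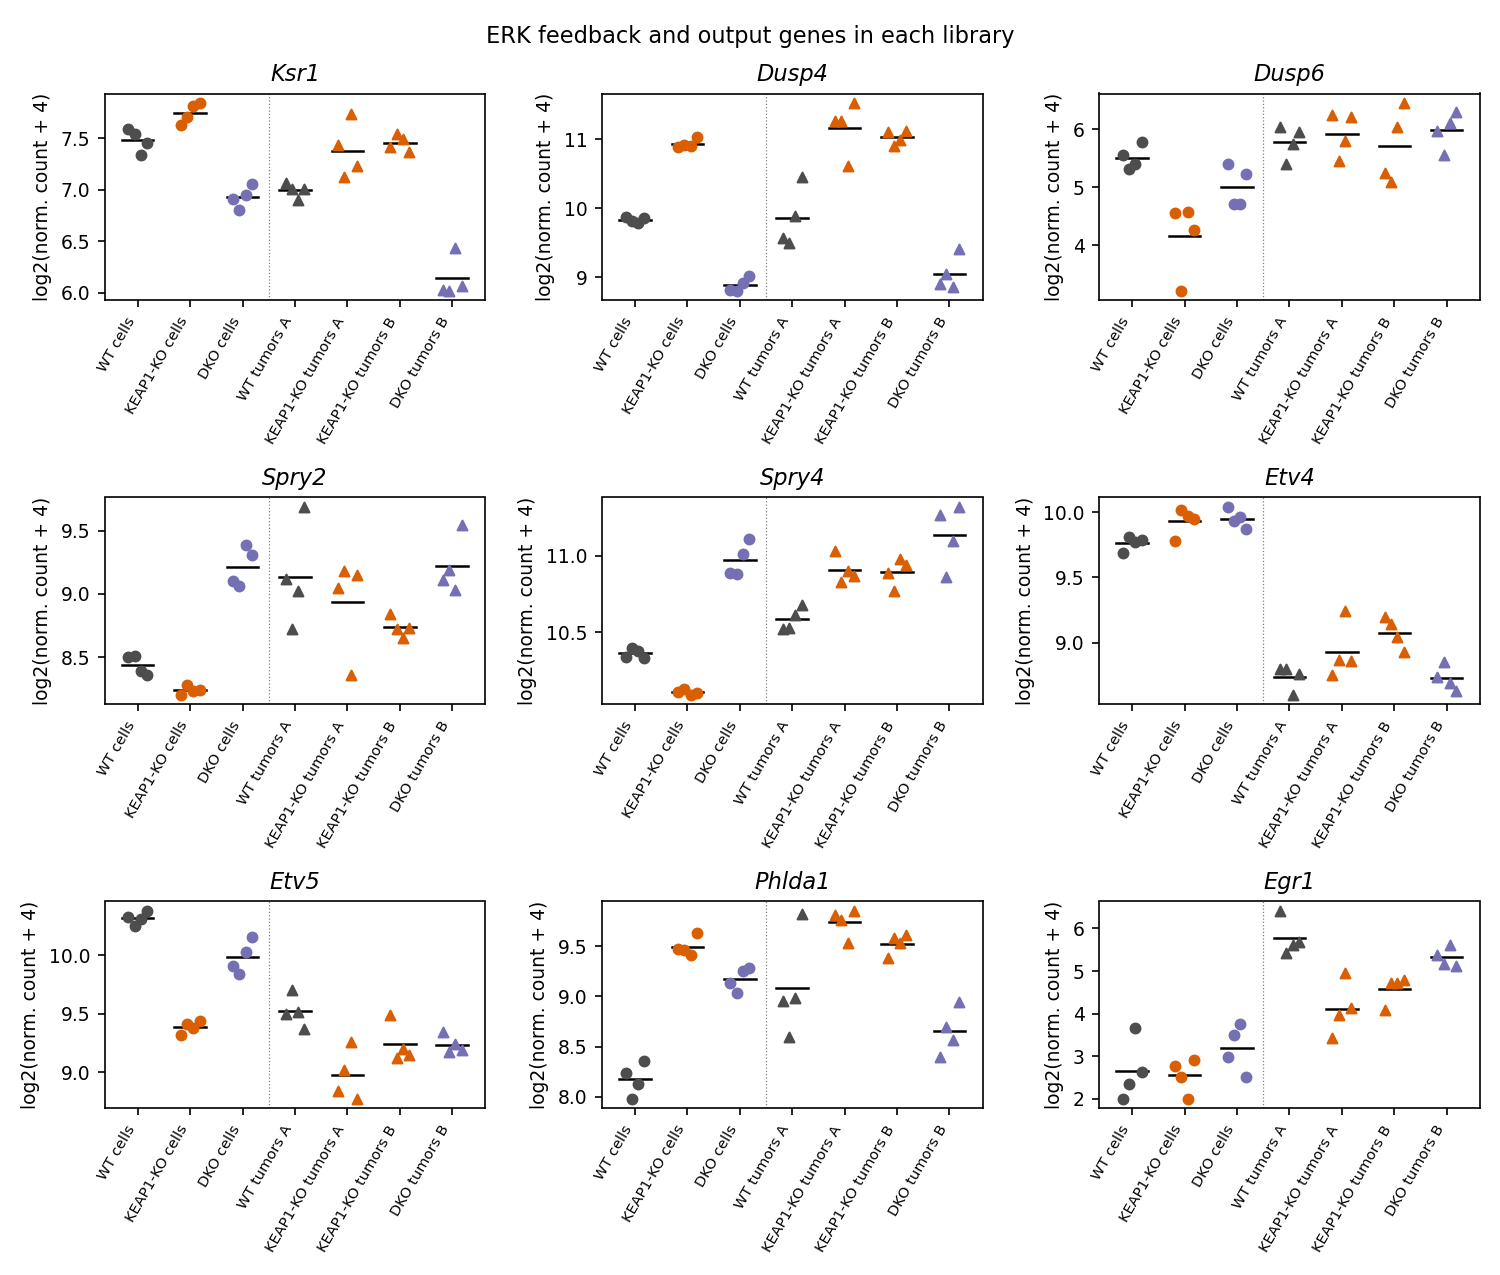
Log2(normalized count + 4) of the 9 genes other than Ksr2 in each library, 1 panel per gene, with circles for cells, triangles for tumors and a line at each group's mean. Dusp4 and Phlda1 rise from WT to KEAP1-KO libraries, Ksr1 and Dusp4 are lowest in DKO within the cells and within the tumors, and Egr1 is near the floor of 2 in cells.

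The Sprouty genes, whose proteins block signalling between receptors and RAS, were highest in DKO cells among the cell groups. Spry2 had log2 levels of 8.5, 8.51, 8.39 and 8.36 in WT cells, 8.20, 8.28, 8.23 and 8.24 in KEAP1-KO cells, and 9.10, 9.06, 9.39 and 9.31 in DKO cells. DKO exceeded KEAP1-KO cells by 0.98 (SE 0.08, limma adjusted p = 3.2e-06), and KEAP1-KO cells lay below WT cells without overlap but not past the threshold (-0.20, adjusted p = 0.102; -0.23, adjusted p = 0.0441 with quantile normalization). In tumors neither Spry2 difference was called, at -0.20 for KEAP1-KO minus WT (interval of 2 SE -0.60 to 0.19) and 0.49 for DKO minus KEAP1-KO (0.10 to 0.88). The latter groups did not overlap, and the difference was called when only they were fitted (adjusted p = 0.0237).

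Spry4 had KEAP1 differences of opposite sign in cells and tumors. WT cells had 10.34, 10.40, 10.38 and 10.33, KEAP1-KO cells 10.11, 10.13, 10.09 and 10.10, and DKO cells 10.89, 10.88, 11.01 and 11.11. KEAP1-KO cells were below WT cells (-0.26, SE 0.05, limma adjusted p = 0.00344). WT tumors had 10.52, 10.53, 10.61 and 10.68 against 11.03, 10.83, 10.90 and 10.87 in KEAP1-KO tumors, which were higher by 0.32 (SE 0.09, adjusted p = 0.0211). That tumor call was lost in 3 of 8 fits without a library and with quantile normalization (adjusted p = 0.0510), and without the mean-variance trend both calls were lost (adjusted p = 0.0937 in tumors and 0.0755 in cells). The tumor difference exceeded the cell difference by 0.58 (SE 0.10, adjusted p = 6.4e-04). DKO cells exceeded KEAP1-KO cells by 0.87 (adjusted p = 1.8e-07), while DKO and KEAP1-KO tumors overlapped and differed by 0.25 (adjusted p = 0.104), a difference called with quantile normalization (0.40, adjusted p = 0.0172) and with all 28 libraries in 1 fit (adjusted p = 0.0343). The NRF2 difference was smaller in tumors than in cells (-0.62, adjusted p = 5.6e-04), a call lost with quantile normalization (-0.37, adjusted p = 0.133).

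Etv4 and Etv5 are ETS factors of the PEA3 group, induced by ERK signalling. Etv5 had log2 levels of 10.33, 10.25, 10.31 and 10.38 in WT cells, 9.32, 9.41, 9.38 and 9.44 in KEAP1-KO cells, and 9.91, 9.84, 10.03 and 10.16 in DKO cells. Each cell genotype was separate from the others, with DKO cells in between. KEAP1-KO minus WT was -0.93 in cells (SE 0.06, limma adjusted p = 7.4e-07) and -0.55 in tumors (SE 0.11, adjusted p = 0.00239), where WT tumors had 9.50, 9.70, 9.51 and 9.37 and KEAP1-KO tumors 8.84, 9.02, 9.26 and 8.77. DKO exceeded KEAP1-KO by 0.59 in cells (adjusted p = 5.9e-05), but the tumors of Experiment B overlapped and differed by -0.01 (adjusted p = 0.985). The difference between these was -0.60 (adjusted p = 0.00714; 0.0518 with quantile normalization).

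Etv4 varied little with genotype. Its levels were 9.69 to 9.81 in WT, 9.78 to 10.02 in KEAP1-KO and 9.87 to 10.04 in DKO cells. It was lower in DKO than KEAP1-KO tumors, at 8.74, 8.85, 8.69 and 8.63 against 9.20, 9.14, 9.04 and 8.93 (difference -0.35, SE 0.10, limma adjusted p = 0.0358), a call lost in 6 of 8 fits without a library. It was also higher in DKO than WT cells (0.19, adjusted p = 0.0452), a call lost in 7 of 8 such fits.

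Phlda1, a pleckstrin homology domain protein induced by ERK signalling, was higher in KEAP1-KO than WT cells, at 9.47, 9.46, 9.41 and 9.63 against 8.24, 7.98, 8.13 and 8.36 (difference 1.32, SE 0.09, limma adjusted p = 4.3e-07). DKO cells had 9.13, 9.03, 9.25 and 9.28, above WT by 1.0 (adjusted p = 4.8e-06) and below KEAP1-KO (-0.32, adjusted p = 0.0363, lost in 6 of 8 fits without a library). In Experiment A, KEAP1-KO tumors had 9.81, 9.76, 9.53 and 9.85 and WT tumors 8.95, 8.60, 8.98 and 9.82, so 1 WT tumor lay among the KEAP1-KO tumors. The difference of 0.65 (adjusted p = 0.0333) was lost in 6 of 8 fits without a library, where it ranged from 0.48 to 0.89. In Experiment B, DKO tumors had 8.40, 8.70, 8.57 and 8.94 against 9.38, 9.58, 9.53 and 9.61, without overlap (-0.87, SE 0.19, adjusted p = 0.00715).

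Egr1, an immediate early zinc finger factor, had 0 to 9 reads per library in the cultured cells and was not tested there. WT tumors had log2 levels of 6.41, 5.43, 5.61 and 5.69, while 3.42, 3.96, 4.96 and 4.14 were found in their KEAP1-KO counterparts, a difference of -1.66 (SE 0.29, limma adjusted p = 9.8e-04). KEAP1-KO tumors of Experiment B had 4.08, 4.72, 4.72 and 4.79 and DKO tumors 5.37, 5.17, 5.62 and 5.12. These did not overlap, but the difference of 0.74 was not past the threshold (adjusted p = 0.150). Egr1 thus had its high tumor levels in the groups with high leukocyte sums given above, and it was near the floor in the cells, whose leukocyte sums were at most 57.7. The part of leukocyte RNA in Egr1 was not tested.

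DKO was also compared with WT directly. In cells 7 of 8 genes were called (17.7% of all rows), with Spry2, Spry4, Etv4 and Phlda1 higher and Ksr1, Dusp4 and Etv5 lower. In tumors, where the groups come from different experiments, 3 of 9 were called (10.6% of all rows), Spry4 higher by 0.56 (limma adjusted p = 5.7e-04) and Ksr1 and Dusp4 lower. These comparisons share libraries with those above. Ksr2 itself lay below WT in both, by -3.89 in cells and -3.05 in tumors on the log2 scale.

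WT tumors were set against WT cells to see how the genes differ without editing. Here 7 of 9 were called, where 38.8% of all rows were, and Ksr2 differed by 0.04 (-0.36 with median centring). Etv4 (-1.02, limma adjusted p = 1.8e-10), Etv5 (-0.79, adjusted p = 1.0e-07) and Ksr1 (-0.49, adjusted p = 7.7e-04) were lower in tumors. Phlda1 (0.91, limma adjusted p = 4.4e-05), Spry2 (0.70, adjusted p = 0.00114) and Spry4 (0.22, adjusted p = 0.0204) were higher. Egr1, counted among the 7, had means of 5.78 in WT tumors and 2.66 in WT cells. These values are a description, since its row entered the fit through the tumors. Among all called rows 63.6% were higher in tumors, 47.2% with quantile normalization and 35.3% with median centring, settings that moved the median of all rows by -0.30 and -0.39. With centring Spry4 turned to -0.17 and Spry2 was not called (0.30, adjusted p = 0.176).

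The test of whether the KEAP1 difference itself differed between tumors and cells called 2 of 9 genes, Dusp6 and Spry4, where 5.38% of all rows were called (Spry4 alone without WT cell library 1 or 4, KEAP1-KO cell library 2, WT tumor 3 or KEAP1-KO tumor 1), and the same test for the NRF2 difference called Spry4 and Etv5, where 3.67% were. Median centring moved the share of higher calls from 27.9% to 54.8% in the KEAP1 test and from 57.7% to 42.7% in the NRF2 test.

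The MAPK output signature was read as a whole from its 8 testable transcripts. Epha2 and Epha4, receptors for ephrins, stayed near the floor, with group means of 2 to 2.91 and 2.09 to 3.02. In KEAP1-KO against WT cells 2 of 8 were higher and 4 lower (median difference -0.19, against 0.02 over all rows), where 15.5% of all rows were called. In the tumors of Experiment A 3 were higher and 2 lower (0.17 against -0.03), where 13.1% were called, and the 3 were 2 with quantile normalization and 1 without WT tumor 1, WT tumor 2 or KEAP1-KO tumor 1. In DKO against KEAP1-KO cells 4 were higher and 2 lower (0.50 against -0.03), where 8.83% were called. In the tumors of Experiment B 1 was higher and 3 lower (0.12 against 0), where 8.86% were called, and with quantile normalization 2 were higher and 2 lower. Ccnd1, which encodes cyclin D1 and is listed as a retained intron, was the member not described above. It was lower on KEAP1 loss in tumors, at means of 11.35 and 11.79 (limma adjusted p = 0.00281), less abundant in KEAP1-KO than WT cells (-0.17, adjusted p = 0.0308) and higher in DKO than KEAP1-KO tumors, at 11.97 and 11.55 (adjusted p = 0.00550).

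The wider cascade was followed with lists of its parts, and the counts of 1 to 3 genes given for them moved by up to 2 genes when a library was left out. Of the list genes named below, Paqr3, Kit, Rasgrp1, Btc, Dusp1, Dusp2 and Ets2 are listed as retained introns, Shoc2, Cnksr1 and Atf3 as processed transcripts, Pdgfc as a transcript marked for decay, Rps6ka1, Rps6ka3, Grb2 and Dab2ip as a single protein-coding transcript, and the others as gene rows. Among scaffolds and modulators other than Ksr2, 2 of 11 were lower in KEAP1-KO than WT cells, where 15.5% of all rows were called in either direction, and 2 of 14 were lower in KEAP1-KO than WT tumors, where 7.49% of all rows were lower. The tumor count was 0 lower and 2 higher with median centring, 1 lower and 2 higher with quantile normalization, and 0 to 2 lower when a library was left out. The genes lower in both were Shoc2, a scaffold that helps to activate RAF (-1.07 in cells and -0.68 in tumors), and Paqr3, which holds RAF at the Golgi (-0.60 and -0.48). Cnksr1, a connector of RAF to RAS, had means of 3.77 in KEAP1-KO and 2 in WT cells, given as a description and not counted as higher, since its row passed the filter on low values through the edited cells alone. Paqr3 was higher in DKO than KEAP1-KO cells (1.24, limma adjusted p = 1.6e-06).

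In the core cascade of RAS, RAF, MEK, ERK and their kinase substrates, 3 of 15 were lower and 1 higher in KEAP1-KO than WT tumors, where 7.49% of all rows were lower. In KEAP1-KO against WT cells 2 of 10 were higher and 1, Rps6ka3, lower, where 15.5% of all rows were called. Rps6ka3, a ribosomal S6 kinase activated by ERK, was lower in tumors (9.22 against 10.06, limma adjusted p = 2.3e-07) and cells (-1.05, adjusted p = 3.7e-08). Rps6ka1, a relative of it, was lower in tumors (4.13 against 6.07, adjusted p = 2.5e-05). In DKO against KEAP1-KO cells none of 10 was called by limma and 4 had an unadjusted p under 0.05, while 2 were higher with quantile normalization and 1 with median centring. Among receptors, 2 of 12 were lower in KEAP1-KO than WT tumors, where 7.49% of all rows were lower. These were Pdgfrb (-0.98) and Kit (-0.72), which stromal and mast cells express. In the same tumors 2 of 10 fibroblast markers were lower (summed normalized counts of 2070 to 5020 in KEAP1-KO and 4980 to 12600 in WT), and their part in the Pdgfrb difference was not tested. In DKO against KEAP1-KO libraries Erbb3, a receptor of neuregulins, was lower in tumors (6.78 against 7.77, adjusted p = 4.1e-06) and in cells (7.19 against 8.28, adjusted p = 5.0e-06).

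Among adaptors and exchange factors 2 of 14 were higher and 2 lower in KEAP1-KO than WT tumors, where 13.1% of all rows were called, among them Grb2 (0.74) and Rasgrp1 (-2.50), an exchange factor of lymphocytes. Of the RAS GTPase-activating proteins, 2 of 10 were higher and 1 lower in those tumors, and 1 of 8 was higher and 1 lower in the cells, where 15.5% of all rows were called. Dab2ip, a member of this list, was higher on KEAP1 loss and lower on NRF2 loss in both settings. Its KEAP1-KO minus WT difference was 1.79 in tumors (limma adjusted p = 0.00566) and 1.71 in cells (adjusted p = 0.00120), and DKO minus KEAP1-KO was -1.96 in tumors (adjusted p = 0.00421) and -2.32 in cells (adjusted p = 1.8e-04).

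Growth factors were higher in KEAP1-KO than WT cells in 6 of 10 tested genes with none lower, where 8.13% of all rows were higher, and the median difference was 1.15 against 0.02 over all rows. Areg, an EGF receptor ligand, had means of 9.56 and 7.85 there (limma adjusted p = 3.8e-08), and Pdgfc (1.53) was also higher. The 6 include Fgf2, with means of 4.37 in KEAP1-KO and 2.81 in WT cells, which passed the filter on low values only through the edited cells, so its values are a description. In KEAP1-KO against WT tumors, where 13.1% of all rows were called, 2 of 16 were higher, Areg (9.41 against 8.16, adjusted p = 0.0166) and Btc, which encodes betacellulin, a further EGF receptor ligand (7.56 against 5.12, adjusted p = 5.5e-06). Btc was lower in DKO than KEAP1-KO libraries in tumors (4.59 against 7.69, adjusted p = 9.4e-07) and in cells (4.93 against 7.71, adjusted p = 3.1e-08). In DKO against WT cells 5 of 10, Fgf2 among them, were higher and 1, Btc, was lower (-1.59), where 8.46% of all rows were higher.

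Of the MAP kinase phosphatases, Dusp4 and Dusp6 counted, 5 of 9 were higher and 1 lower in KEAP1-KO than WT cells (median difference 0.50), where 15.5% of all rows were called, among them Dusp1 (2.54, limma adjusted p = 0.00153) and Dusp2 (1.28, adjusted p = 5.1e-07). In KEAP1-KO against WT tumors Dusp4 was the only call among 10, where 13.1% of all rows were called. The DKO against KEAP1-KO comparison gave 3 of 10 lower and 1, Dusp9, higher in tumors (8.86% of all rows called), and 3 of 9 lower and again Dusp9 higher in cells (8.83%). In both, the lower ones were Dusp4, Dusp5 (8.22 against 9.65 in tumors, adjusted p = 9.9e-06; 8.47 against 9.47 in cells, adjusted p = 9.7e-07) and Dusp2 (-1.08 and -0.47). The count of 1 higher fell to 0 without some library in tumors and in cells, and with median centring in cells. Among the receptor-proximal inhibitors, 1 of 10 was higher and 2 lower in KEAP1-KO than WT tumors (13.1% of all rows called) and 2 of 6 lower in cells (15.5%). Spred1, which recruits neurofibromin to RAS, was lower in KEAP1-KO than WT tumors (11.27 against 11.74, adjusted p = 5.3e-04) and cells (-0.55, adjusted p = 1.8e-05). Among ETS factors 2 of 8 were higher and 2 lower in those tumors, and 1 of 8 was higher and 4 lower in the cells, against the same shares of all rows. Ets2 was higher in KEAP1-KO than WT tumors (0.86, adjusted p = 7.2e-04) and cells (1.14, adjusted p = 1.5e-07) and lower in DKO than KEAP1-KO tumors (-1.14, adjusted p = 9.6e-05).

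The immediate and delayed early genes, which are transcribed soon after ERK and other pathways are activated, changed with KEAP1 loss in cells but not in the same way in tumors. In KEAP1-KO against WT cells 15 of 23 were higher and 1 lower, where 8.13% of all rows were higher, with a median of 0.89 against 0.02 over all rows. Atf3 (8.20 against 5.85, limma adjusted p = 2.4e-09), Ccn1 (9.57 against 7.76, adjusted p = 1.1e-09) and Ier3 (1.63, adjusted p = 1.1e-08) moved most. In the tumors of Experiment A 1 of 28 was higher and 5 lower (median -0.33 against -0.03), where 7.49% of all rows were lower. Btg2 (4.32 against 6.46, adjusted p = 5.0e-05), Egr1 and Klf4 (-1.48, adjusted p = 6.7e-04) moved most. The tumor difference was below the cell difference in 13 of 29 genes and above it in none by limma, where 3.88% of all rows were below. Of these 29 genes, 23 could be tested in cells and hold 11 of the 13, and the others called, Btg2 and Klf4, were near the floor in cells and entered through the tumors. Across left-out libraries the 13 ranged from 11 to 15, and it was 11 with median centring. Zfp36, which destabilises mRNAs, was higher in KEAP1-KO cells (1.21) and lower in KEAP1-KO tumors (-0.73), and these differed by -1.94 (adjusted p = 2.4e-08).

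**Figure D4:**
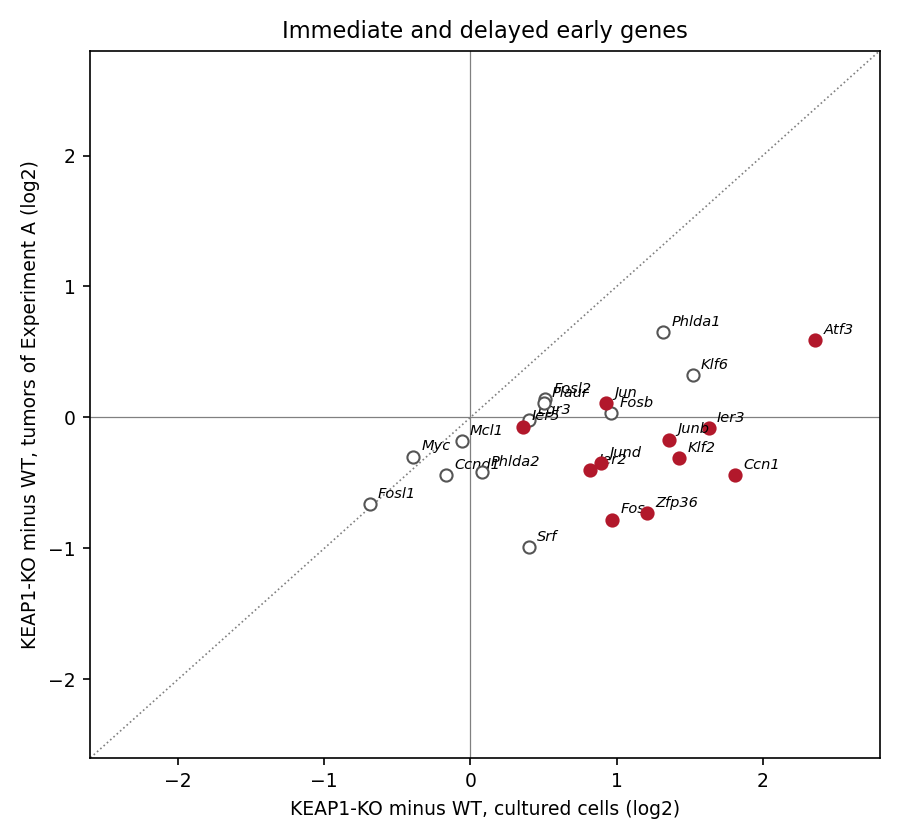
KEAP1-KO minus WT log2 difference of 23 immediate and delayed early genes in cultured cells (horizontal) and in tumors of Experiment A (vertical), 1 point per gene, with a dotted line where both are equal. The 11 filled points, whose tumor and cell differences differ at an adjusted p under 0.05, lie below the line.

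The same early genes were higher in WT tumors than in WT cells in 19 of 29 and lower in 2, where 24.7% of all rows were higher (17 higher and 3 lower with median centring). Only 23 of the 29 could be tested in cells. The others, Egr1, Btg2 and Klf4 among them, entered this fit through the tumors. The count of 19 is thus partly set by the filter and is a description. In DKO against WT cells 15 of 23 were higher and 2 lower, where 8.46% of all rows were higher. In DKO against KEAP1-KO cells 6 of 23 were higher and 5 lower, where 8.83% of all rows were called, and the 5 fell to between 2 and 4 when any library was left out. The tumor values include RNA of the leukocytes and other host cells counted above, and their part in the tumor differences was not tested.

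The genes next to Ksr2 on chromosome 5 were examined, with 5 protein-coding genes on each side in the RefSeq order. Of these 10, Tesc and Hrk are not listed in the table. None of the others is a gene row. Nos1 and Taok3 are listed as a protein-coding transcript, and Pebp1 as a transcript marked for decay. Vsig10, Wsb2, Rfc5, Fbxo21 and Fbxw8 are listed as retained introns. Nos1, the next gene after Ksr2, encodes neuronal nitric oxide synthase. In cells its means were 3.96 in WT, 2.29 in KEAP1-KO and 2.24 in DKO, given as a description because the row passed the filter on low values only through the WT cells. It was lower in KEAP1-KO than WT tumors, at 3.48 and 6.02 (-2.54, SE 0.28, limma adjusted p = 1.3e-05). It was not called in DKO against KEAP1-KO tumors (0.71, adjusted p = 0.155; 1.04, adjusted p = 0.0287 when the rows of a gene were summed). Pebp1, which encodes the RAF kinase inhibitor protein, was not called on KEAP1 loss in tumors (0.18, adjusted p = 0.0542) and was lower in DKO than KEAP1-KO tumors (-0.35, adjusted p = 8.1e-04). Rfc5 was lower (-0.30, adjusted p = 0.00279) and Fbxw8 higher (0.39, adjusted p = 1.3e-04) in KEAP1-KO than WT cells.

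**Figure D5:**
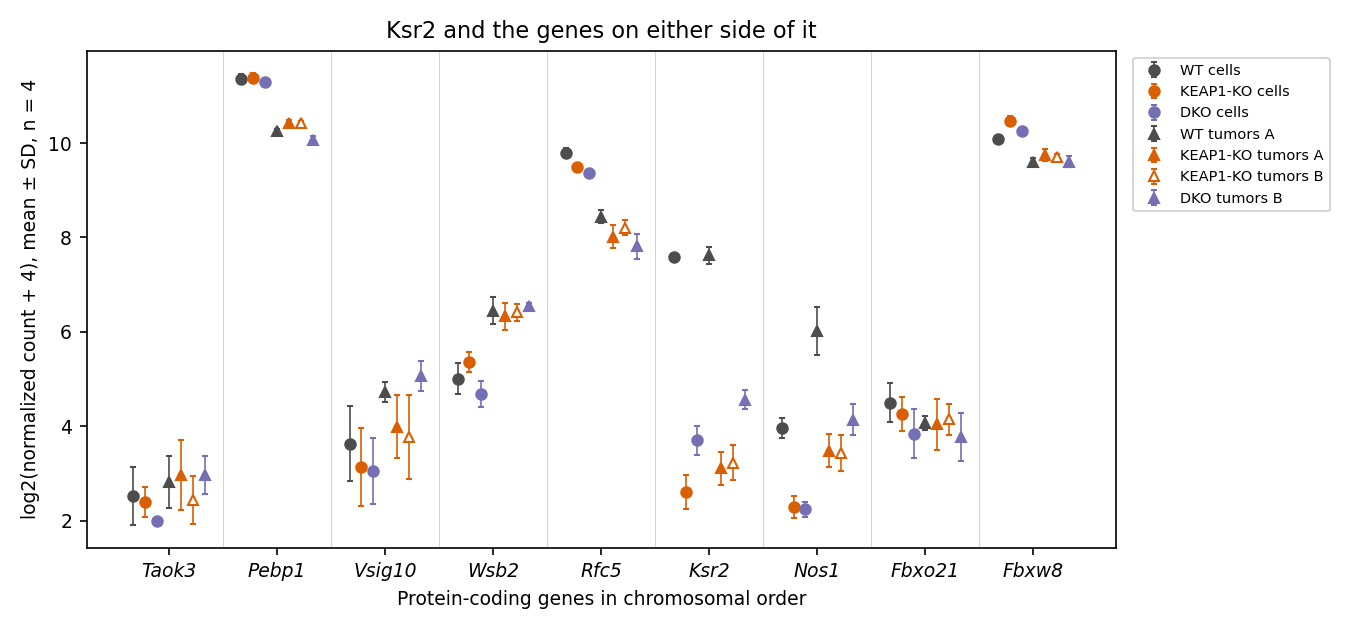
Mean and SD (n = 4) of log2(normalized count + 4) of Ksr2 and its listed neighbours in chromosomal order, with circles for cells and triangles for tumors. Ksr2 is a gene row and each neighbour a single transcript. Ksr2 is high in the WT groups only, and Nos1 has means of 3.96 in WT and 2.29 in KEAP1-KO cells and of 6.02 in WT, 3.48 in KEAP1-KO (Experiment A) and 4.14 in DKO tumors.

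Finally, the 16587 other rows with a symbol that passed the filter on low values were ranked by Pearson correlation with Ksr2 over the 28 libraries, which restates the grouping into WT and edited libraries and carries no test. The most similar were Cav1, which encodes caveolin (r = 0.971), Arhgap6 (0.967) and Nkx2-2, a homeobox factor of the neural tube (0.946). Nkx2-2 had means of 4.93 in WT cells and 4.89 in WT tumors and was at the floor of 2 in every edited group. The most opposite were Esr1, the oestrogen receptor (-0.946), Map7d2 (-0.944) and Dtna (-0.943). Map7d2 was at 2 in WT cells and WT tumors and between 5.75 and 6.04 in the edited groups. Nkx2-2 is listed as a gene row, Map7d2 as a protein-coding transcript and Arhgap6 as a retained intron. Cav1, Esr1 and Dtna are listed as processed transcripts.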

How the data were processed

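RNA-seq values of 28 libraries were used, in 7 groups of 4 taken from the sample titles. By the paper's methods, reads were quantified with Salmon on GENCODE transcripts and analysed in iDEP; the genome build is not given in the sources used here. The authors deposited log2 values, which the table itself shows to be log2(normalized count + 4): the lowest is 2 and 100% of the low values gave whole reads (within 0.1 read). TPM, which the methods name and the design assumed, did not apply, so limma was run on the deposited log2 values. The labels' extraction text names liver, and the paper's description of tumors and cells was used. The number of unused sample columns was 0.

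A row entered a fit if 4 or more of its libraries reached 5 normalized counts. The fits used limma 3.58.1 (lmFit, eBayes with trend; R 4.3.3), in 1 fit of 16 tumors (34215 rows), 1 of 12 cell libraries (29744 rows) or, for tumors against cells and for differences between differences, 1 of 28 libraries (37246 rows), with Benjamini-Hochberg adjustment over all rows of a fit and a threshold of 0.05. The fits were tested on simulated data first. The low depth near the floor of 2 understates folds. The genes and lists were chosen with earlier results of these data known. Named were all 10 genes, Keap1, Nfe2l2, Nqo1 and Gsta4 as a check, the MAPK output signature, up to 3 called genes with the largest difference per list and comparison, 5 neighbours on each side of Ksr2, and the 3 most and least similar genes. Some genes that the rule names are left to counts or are not reported here. Promoters are from RefSeq (GRCm38.p6), and gene names from GENCODE vM21 and RefSeq. Alternatives were another pseudocount (0.4), other filters, scalings, fits and thresholds, a replicate block, the sum of a gene's rows and each library left out. The chi-square per degree of freedom of all 42 pairs of libraries within groups was between 5.03 and 15.78, so no pair agreed within sampling noise.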

Additional observations from a re-analysis of the deposited data

Results flagged for a closer look

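In groups of 4 libraries, a library was noted where its gap to the nearest other library was large against the group's range by Dixon's test. Of 70 groups tested, 4 were noted, and chance alone notes about 1 in 20. Ksr2 was at 2.57 in KEAP1-KO tumor 3 of Experiment A, with the nearest tumor at 3.26. Spry2 was at 8.36 in the same tumor, with the nearest at 9.05. Ksr1 was at 6.44 in DKO tumor 3, with the nearest at 6.07. Egr1 was at 4.08 in KEAP1-KO tumor 1 of Experiment B, with the nearest at 4.72.

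The KEAP1-KO minus WT difference of Dusp6 was 0.14 in tumors and -1.36 in cells, and tumor minus cell was 1.5 (limma adjusted p = 0.0333). That of Spry4 was 0.32 in tumors and -0.26 in cells, and tumor minus cell was 0.58 (limma adjusted p = 6.4e-04). For Spry4 every library of KEAP1-KO tumors lay above every WT tumor while every KEAP1-KO cell library lay below every WT cell library. The NRF2 difference in tumors minus that in cells was below 0 for Spry4 (-0.62, limma adjusted p = 5.6e-04) and for Etv5 (-0.60, limma adjusted p = 0.00714).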

How the results depend on the processing

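With an absolute log2 difference of at least 1 required as well, the counts of called genes fell from 5 to 2 (KEAP1-KO against WT tumors), 5 to 3 (DKO against KEAP1-KO tumors), 3 to 0 (DKO against WT tumors), 5 to 3 (KEAP1-KO against WT cells), 6 to 1 (DKO against KEAP1-KO cells), 7 to 0 (DKO against WT cells), 7 to 2 (WT tumors against WT cells), 2 to 1 (KEAP1 difference between tumors and cells) and 2 to 0 (NRF2 difference), as this setting requires more of each gene. The share of all rows was not counted at this setting. The counts for WT tumors against WT cells include Egr1, whose row entered the fit through the tumors. For KEAP1-KO against WT tumors the count was 3 without the trend and 3 to 5 without a library. For the KEAP1 difference it was 4 with the replicate block, 4 with the rows of a gene summed and 1 to 3 without a library. For the NRF2 difference it was 1 with quantile normalization and 4 with median centring. The cause was not tested.

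Differences near 0 changed sign: Etv5 in Experiment B to 0.08 (quantile normalization; -0.05 to 0.08 without a library); Spry2 in DKO against WT tumors to between -0.05 and 0.27 without a library; Etv4 there to 0.06 (quantile normalization), 0.02 (centring) and 0.01 (summed rows; -0.06 to 0.02 without a library); Etv4 in DKO against KEAP1-KO cells to -0.01 (summed rows; -0.04 to 0.05 without a library); Nos1 there to 0.09 (quantile normalization; -0.15 to 0.04 without a library). In WT tumors against WT cells, centring gave -0.37 for Dusp4 (-0.18 to 0.14 without a library), -0.12 for Dusp6 and -0.17 for Spry4, and quantile normalization gave -0.01 for Dusp6 and 0.48 for Dusp4, then called (adjusted p = 0.0300). Over the 9 genes, 1063 values kept direction and side of the threshold, 60 lost it, 22 gained it and 20 changed sign.

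With a pseudocount of 0.4 the Ksr2 differences from WT were -5.33 (tumors) and -6.38 (cells) for KEAP1-KO and -3.27 and -4.34 for DKO, and DKO exceeded KEAP1-KO cells by 2.04. The replicate numbers did not pair the libraries: same-numbered libraries correlated between -0.034 and 0.04, and only for WT and DKO cells did each correlate best with its own number. The labels do not tie numbers to mice. With the replicate block the count of called genes was 5 in Experiment A, 4 in Experiment B and 5, 6 and 6 in the cell comparisons, and Etv4 was no longer called in DKO against KEAP1-KO tumors (adjusted p = 0.0876) or DKO against WT cells (adjusted p = 0.0821). The block could not be estimated between experiments or between tumors and cells. Few reads limit Ksr2 in edited libraries, Egr1 in cells and Dusp6, which had 6 to 21 reads per KEAP1-KO cell library.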
